A study of Mus musculus with 48 samples.

Results

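The 9 genes described here are transcripts that neutrophils carry. They are the alarmins *S100a8* and *S100a9*, the receptors *Il1r2*, *Cxcr2*, *Csf3r* and *Cd300lf*, the proteases *Mmp8* and *Mmp9*, and the resistin-like *Retnlg*. They were chosen by name, with earlier results of these data known. Each matched 1 gene identifier of the count tables, so that they are 9 of 46983 genes listed. All 9 were among the 19970 genes tested, which had more than 10 counts in total. RNA from the brains of male C57Black/6 mice aged 3 months was sequenced from the 3′ ends of transcripts in 48 libraries. Permanent middle cerebral artery occlusion (MCAO), in which the artery was coagulated and cut, gave 24 libraries, namely 5 at 3 hours, 5 at 12 hours, 4 at 24 hours, 5 at day 3 and 5 at day 7. Sham mice went through the operation without the coagulation and gave 4 libraries at each of the 5 times, and uninjured controls gave 4. The labels name no transgene, and the operations were done under isoflurane. Libraries of a group are named by the letter their labels give them (A to E). The tissue was a block around the infarct with damaged and undamaged cortex, and the study elsewhere describes it as most of the hemisphere. It was taken after perfusion with buffer, and erythroid transcripts were still read in the libraries (levels below).

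Neutrophils are short-lived white blood cells that leave the blood at sites of injury, and they are among the first blood cells to reach ischemic brain tissue. *S100a8* and *S100a9* encode the pair of calcium-binding proteins that make up calprotectin, which fills the cytoplasm of neutrophils and signals danger when released. *Cxcr2* is the receptor for CXC chemokines that draws neutrophils out of the marrow and into tissue, *Csf3r* is the receptor for granulocyte colony-stimulating factor, and *Il1r2* is a decoy receptor that binds interleukin-1 without signaling. *Cd300lf* encodes an inhibitory lipid-binding receptor of myeloid cells. *Mmp8* (neutrophil collagenase) and *Mmp9* (gelatinase B) are stored in granules and cut matrix proteins, and *Retnlg* encodes a resistin-like secreted protein of mouse neutrophils. *Csf3r*, *Cd300lf*, *Il1r2* and *Mmp9* are also made by monocytes, macrophages or microglia. In bulk tissue a count of any member, *S100a8* and *S100a9* included, does not name its cell.

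*S100a8* (chr3:90668978-90670035, plus strand) and *S100a9* (chr3:90692632-90695721, minus strand) are neighbors on chromosome 3 of GRCm38, 22596 bases apart and facing each other. The other members lie on 7 different places of the genome, *Il1r2* at chr1:40074079-40125231 and *Cxcr2* at chr1:74153989-74161246, *Mmp9* at chr2:164940780-164955850, *Csf3r* at chr4:126024550-126044440, *Mmp8* at chr9:7558456-7568485, *Cd300lf* at chr11:115116214-115133992 and *Retnlg* at chr16:48872621-48874496. All 9 are annotated as protein-coding. The upstream sequences of *S100a8*, *S100a9* and *Cd300lf*, the members that passed the test at 12 hours, are printed below because these genes were called in the same comparison. They are the 250 bases before the RefSeq start (GRCm38.p6), 5′ to 3′ on the strand of the gene, and capitals mark the letters of the motifs searched. For *S100a8* that start lies inside the gene span given above, which begins at base 90668978. The end of its stretch, with the TATA box and the motif beside it, thus overlaps that span.
S100a8 (chr3:90668821-90669070, plus strand): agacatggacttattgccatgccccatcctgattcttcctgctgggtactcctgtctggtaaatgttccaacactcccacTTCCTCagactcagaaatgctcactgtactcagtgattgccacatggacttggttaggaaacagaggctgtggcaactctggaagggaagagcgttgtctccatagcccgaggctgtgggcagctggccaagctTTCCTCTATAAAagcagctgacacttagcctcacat
S100a9 (chr3:90695722-90695971, minus strand): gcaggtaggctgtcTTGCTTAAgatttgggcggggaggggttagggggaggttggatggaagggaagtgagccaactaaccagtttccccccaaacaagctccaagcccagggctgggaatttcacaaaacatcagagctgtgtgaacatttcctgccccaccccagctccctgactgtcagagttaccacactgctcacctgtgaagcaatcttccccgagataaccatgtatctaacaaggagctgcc
Cd300lf (chr11:115133993-115134242, minus strand): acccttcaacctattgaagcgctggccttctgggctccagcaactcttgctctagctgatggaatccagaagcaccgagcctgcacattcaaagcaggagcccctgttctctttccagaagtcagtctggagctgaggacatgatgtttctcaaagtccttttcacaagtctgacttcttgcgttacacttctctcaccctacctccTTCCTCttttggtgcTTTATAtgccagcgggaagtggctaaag

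The motifs were searched on both strands in the 8 member promoters at hand (*Mmp9* had none). GAGGAA, the core read by the myeloid factor PU.1, was in 5 of the 8 (*S100a8*, *Cxcr2*, *Csf3r*, *Cd300lf* and *Mmp8*) and in 23.1% of all 27025 promoters. TTGCNNAA, read by the C/EBP family of granulocyte factors, was in 3 of the 8 (*S100a9*, *Mmp8* and *Retnlg*) and in 9.55% of all. TATAAA, the TATA box, was in 2 of the 8, *S100a8* and *Cd300lf*, and in 12.97% of all. GGGNNTTCC, a form of the NF-kB site, was in 0 of the 8 and in 4.88% of all. In the *S100a8* sequence a PU.1 motif ends where the TATA box begins, and the motifs do not overlap elsewhere in the sequences printed. These are matches of letters and say nothing of binding.

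The libraries held 1522668 to 2826735 counts on genes (median 1935856). Levels are given as raw counts or as CPM, the counts set to a common library size after TMM scaling (trimmed mean of M values), on which 1 count was worth 0.363 to 0.632 CPM depending on the library. Because the reads come from the 3′ end, a count depends little on transcript length, and levels of different genes are compared only on that per-transcript basis. *Ly6g*, the defining surface marker of mouse neutrophils, had 9 counts in all over 5 libraries, and *Cxcr1* had 8 over 3. Every one of these counts was in an MCAO library. The marker of the cell type was thus at or near 0, and the members themselves carry the signal described below. Nothing in these bulk libraries separates fewer cells from less RNA per cell. The libraries MCAO 12 hours E and MCAO day 3 C stood apart from all others in the members. Differences that rest on them are given with and without them, on the library sizes of the full fit where they are ratios. Of the 48 libraries, MCAO 12 hours E also had the highest share of reads outside genes (30.6%, median 23.5%). MCAO day 3 C had the highest share of spike-ins, RNA added to each library (5.97% of gene and spike-in counts, median 4.39%). The part of these shares in the member results was not tested.

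In control and sham tissue these transcripts were close to absent, and most of their counts were in MCAO libraries. The 24 control and sham libraries held 75 counts of *S100a8* in all, 65 of *S100a9*, 91 of *Mmp9*, 32 of *Csf3r*, 28 of *Cd300lf*, 10 of *Il1r2*, 4 of *Cxcr2*, 4 of *Mmp8* and 2 of *Retnlg*. The 24 MCAO libraries held 2831 of *S100a8*, 2740 of *S100a9*, 574 of *Cd300lf*, 432 of *Mmp9*, 129 of *Retnlg*, 125 of *Csf3r*, 104 of *Mmp8*, 95 of *Il1r2* and 90 of *Cxcr2*. *S100a8*, *S100a9*, *Cd300lf* and *Mmp9* were read in all 24 MCAO libraries, while *Cxcr2* and *Mmp8* were at 0 in 10 of them. In 15 of the 24 MCAO libraries the *S100a8* count was above that of every control and sham library, and the same held for *S100a9* in 15. The sum over the 9 genes was 5 to 25 counts in control and sham libraries. After MCAO it ran from 26 to 164 (median 76) at 3 hours, 37 to 3018 (median 313) at 12 hours, 87 to 151 (median 113) at 24 hours, 18 to 1595 (median 75) at day 3 and 23 to 125 (median 47) at day 7. The 24 hour libraries were the most alike, and the 12 hour and day 3 libraries spread most. MCAO 12 hours E held 3018 and MCAO day 3 C 1595 of the 7120 member counts of the MCAO libraries, which together is 64.8%.

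The comparison of MCAO with sham at the same time asks what the occlusion added to the surgery. It was tested with edgeR's quasi-likelihood test in 1 fit of all 11 groups, and calls needed both an adjusted p (Benjamini-Hochberg) below 0.01 and a log2 fold change beyond 0.58 in size. MCAO raised 3 members at 12 hours (*S100a8*, *S100a9* and *Cd300lf*), where 0.346% of all genes tested were called higher, and 4 at day 3 (*S100a8*, *S100a9*, *Cd300lf* and *Mmp9*), where 3.76% were. No member was called at 3 hours, 24 hours or day 7, where 0.0901%, 0.0801% and 2.07% of all genes were called higher. At those times 3, 5 and 4 of the 9 had an unadjusted p under 0.05, as had 1688, 1757 and 4698 of the 19970 genes tested. DESeq2 called 0, 0 and 1 of the members. The shares of all genes, here and below, are from the edgeR fit of all groups and do not apply to DESeq2 counts. Of the 9 fitted log2 fold changes, 9 were above 0 at 3 hours, 12 hours, day 3 and day 7 and 8 at 24 hours, with medians of 2.35, 6.18, 3.28, 5.41 and 3.26 in order of time. The medians of all genes tested lay between 0 and 0.056. No member was called lower at any time.

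Separation of the libraries was read beside the calls. In CPM, every MCAO library lay above every sham library for 2 members at 3 hours (*S100a8* and *S100a9*), 3 at 12 hours (*S100a8*, *S100a9* and *Cd300lf*), 4 at 24 hours (*S100a8*, *S100a9*, *Cd300lf* and *Mmp9*), 2 at day 3 (*S100a8* and *S100a9*) and 2 at day 7 (*S100a8* and *Cd300lf*). Of all genes tested, 2.27%, 2.03%, 3.73%, 4.33% and 5.38% were so separated. In raw counts 0, 3, 4, 2 and 1 members were separated, and no share of all genes is at hand on that scale. The separation of *S100a8* and *S100a9* at 3 hours and of *S100a8* at day 7 thus rested on the scaling, since the lowest MCAO library had 10 counts of *S100a8* and 4 of *S100a9* at 3 hours against 11 and 5 in the highest sham, and 5 against 5 counts of *S100a8* at day 7 (2.88 against 2.86 CPM). At 12 hours, 24 hours and day 3 *S100a8* and *S100a9* were separated on both scales.

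**Figure D1:**
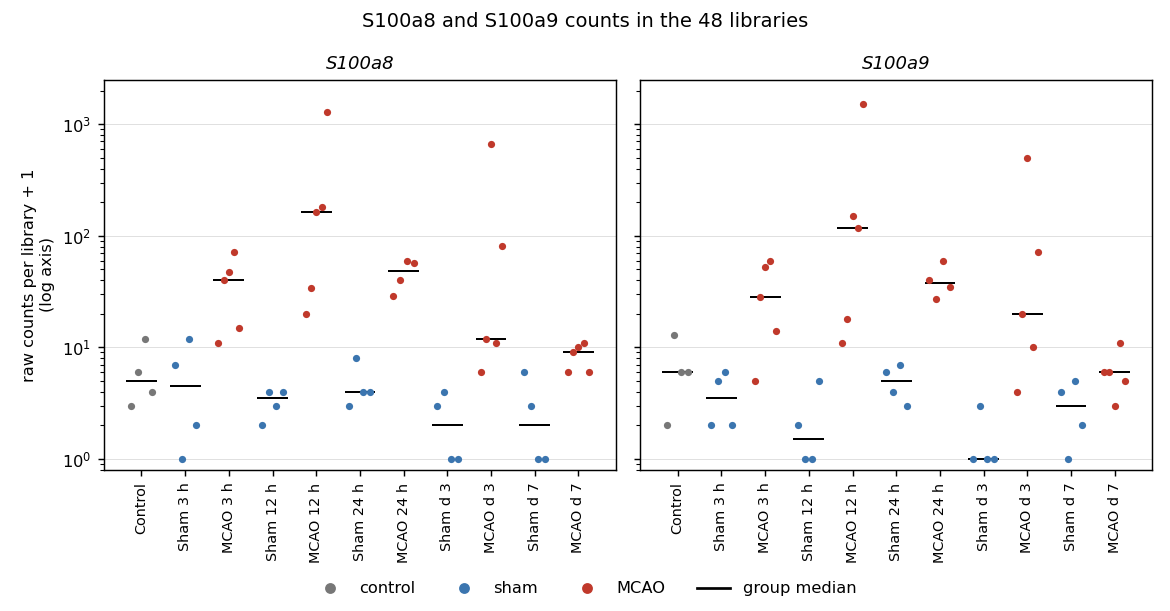
Raw counts of *S100a8* and *S100a9* plus 1 (log axis) in each of the 48 libraries by group, with points for libraries and a bar for the group median. The highest points are MCAO 12 hours E (1274 and 1517 counts) and MCAO day 3 C (657 and 492 counts), while no control or sham library exceeds 12.

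Summed over the MCAO libraries, the alarmins were the most abundant members. At day 7 the mean CPM of *Cd300lf* (10.7), *Csf3r* (5.52) and *Mmp9* (5.36) was above that of *S100a8* (4.05) and *S100a9* (2.78). *S100a8* had 2, 5, 11 and 3 counts in the control libraries. At 3 hours it had 10, 39, 46, 71 and 14 counts after MCAO and 6, 0, 11 and 1 in sham. All 5 MCAO libraries were above the shams in CPM though not in counts, with 16.1 ± 10.3 CPM (SD, n = 5) against 1.96 ± 2.22 (SD, n = 4). The log2 fold change of 2.91 ± 1.21 (SE) was not called (edgeR adjusted p = 0.480). At 12 hours *S100a8* had 19, 33, 163, 181 and 1274 counts after MCAO and 1, 3, 2 and 3 in sham. The lowest MCAO library was above the highest sham, and the MCAO libraries differed among themselves 67-fold in counts. The difference of 7.50 ± 1.25 on the log2 scale passed (edgeR adjusted p = 0.000363). Without MCAO 12 hours E it was 5.63 and still called (edgeR adjusted p = 0.00481).

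At 24 hours *S100a8* had 28, 39, 58 and 56 counts after MCAO and 2, 7, 3 and 3 in sham. The MCAO libraries differed little beside those at 12 hours and day 3, at 22.2 ± 9.52 CPM (SD, n = 4) against 2.25 ± 1.47 (SD, n = 4), a ratio of summed and scaled counts of 9.68. The log2 fold change of 3.28 ± 1.27 was not called in the fit of all groups (edgeR adjusted p = 0.382) and was called when only these 8 libraries were fitted (3.27, edgeR adjusted p = 0.00119). The same happened for *S100a9*, with 2.95 ± 1.30 (edgeR adjusted p = 0.495) and 2.94 (edgeR adjusted p = 0.00110). The fit of all groups shares 1 estimate of the spread per gene over groups that vary as little as these and as much as those at 12 hours. With the compared libraries alone, no member was called at 12 hours or day 3.

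At day 3 *S100a8* had 5, 11, 657, 10 and 80 counts after MCAO and 2, 3, 0 and 0 in sham. Libraries A, B and D were only slightly above the shams, E was clearly above and C was far above. The log2 fold change was 6.96 ± 1.36 (edgeR adjusted p = 0.000415). It became 4.34 and was no longer called without MCAO day 3 C (edgeR adjusted p = 0.0330), whereas with that library and MCAO 12 hours E both left out it was 4.32 and was called (edgeR adjusted p = 0.00278). By day 7 the counts were 5, 8, 9, 10 and 5 after MCAO and 5, 2, 0 and 0 in sham, with a log2 fold change of 2.12 ± 1.76 that was not called (edgeR adjusted p = 0.498). The day 7 level was 4.05 ± 1.06 CPM (SD, n = 5), beside 2.96 ± 2.28 (SD, n = 4) in the controls.

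*S100a9* followed the same course. It had 1, 12, 5 and 5 counts in the controls. The counts at 3 hours were 4, 27, 52, 58 and 13 after MCAO and 1, 4, 5 and 1 in sham, separated in CPM but not in counts. At 12 hours they were 10, 17, 148, 116 and 1517 after MCAO against 1, 0, 0 and 4 in sham. That was the largest fitted log2 fold change of any member called, 8.42 ± 1.38 (edgeR adjusted p = 0.000342), and it was 5.97 and still called without MCAO 12 hours E (edgeR adjusted p = 0.00481). At 24 hours the counts were 39, 26, 59 and 34 after MCAO against 5, 3, 6 and 2 in sham. At day 3 they were 3, 19, 492, 9 and 71 against 0, 2, 0 and 0. As the shams of day 3 held 2 counts in all, the ratio of summed counts was 263 with a 95% exact counting interval of 72.4 to 2173, which covers counting error only. Without MCAO day 3 C the ratio was 55.8 (15.1 to 467). The fitted difference was 7.70 ± 1.59 (edgeR adjusted p = 0.000806), and 5.40 without MCAO day 3 C (edgeR adjusted p = 0.0372). At day 7 the counts were 5, 5, 2, 10 and 4 against 3, 0, 4 and 1, and the groups overlapped.

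Both transcripts were read at similar levels in each library. In the 17 libraries with at least 20 counts of the pair, *S100a8* made up 36.7% to 66.0% of them (median 53.0%). In MCAO 12 hours E it was 45.6% (95% exact interval 43.8% to 47.5%) and in MCAO day 3 C 57.2% (54.3% to 60.1%), so that the share differed between these libraries by more than counting error. Over the 24 MCAO libraries Pearson's r of log2(CPM + 1) between the pair was 0.97, and 0.94 over 22 without both of those libraries, the highest of the 36 pairs of members in either case.

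**Figure D2:**
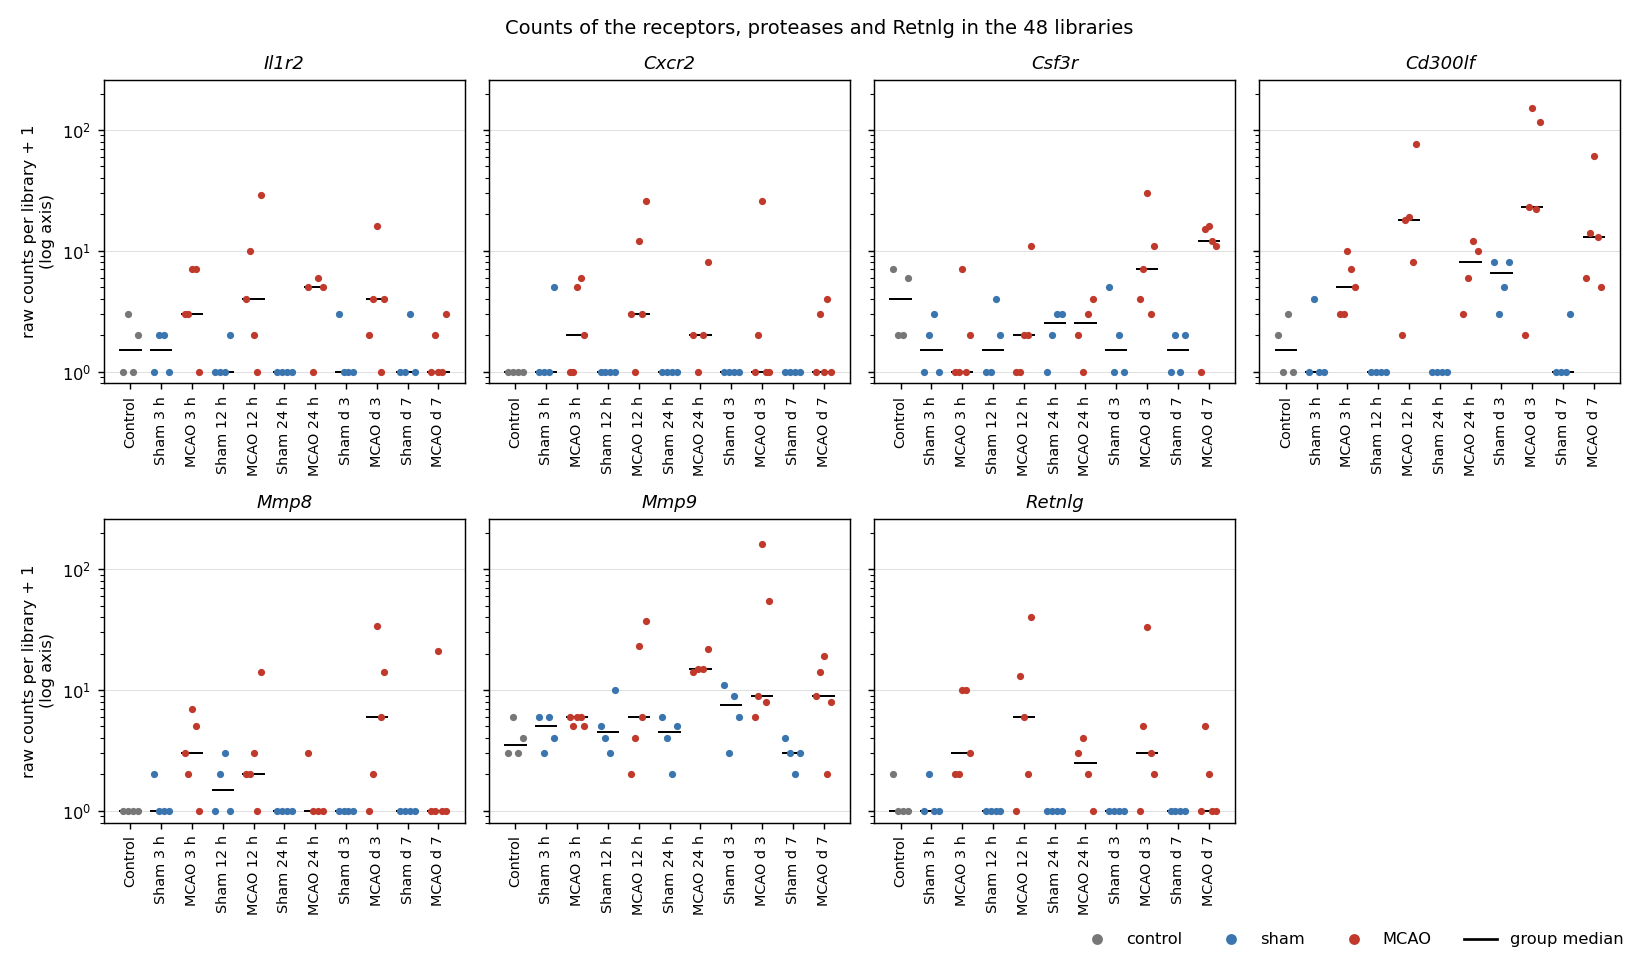
Raw counts plus 1 (log axis) of *Il1r2*, *Cxcr2*, *Csf3r*, *Cd300lf*, *Mmp8*, *Mmp9* and *Retnlg* in each of the 48 libraries, with a bar for the group median. Most sham and control points of *Cxcr2*, *Mmp8* and *Retnlg* lie at 0 counts, *Mmp9* starts from 1 to 10 counts, and *Csf3r* has its highest MCAO median at day 7 (11 counts).

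Of the receptors, *Cd300lf* was the one that was called. It had 1, 0, 2 and 0 counts in the controls. At 3 hours it had 2, 2, 9, 6 and 4 counts after MCAO and 0, 3, 0 and 0 in sham, and the groups overlapped. At 12 hours it had 1, 17, 18, 7 and 76 counts after MCAO and 0 in all 4 shams. It was at least 35.4-fold higher over the group, with the shams set at a floor of 3 counts, and called (edgeR adjusted p = 0.00849). It was at least 15.4-fold higher without MCAO 12 hours E, and the call was lost (edgeR adjusted p = 0.0528), as it was without MCAO 12 hours C or any 1 sham of that time. At 24 hours the counts were 2, 5, 11 and 9 against 0 in all shams, at least 7.22-fold higher over the group and not called (edgeR adjusted p = 0.377). At day 3 they were 1, 22, 152, 21 and 115 after MCAO against 7, 2, 4 and 7 in sham. Here 4 of 5 MCAO libraries were above all shams, with C and E highest and A below them, and the log2 fold change was 3.73 ± 0.91 (edgeR adjusted p = 0.00548). Without MCAO day 3 C it was 3.02 and not called (edgeR adjusted p = 0.0424), and the call was also lost without MCAO day 3 E or any 1 sham of that time. At day 7 the counts were 5, 13, 60, 12 and 4 against 0, 0, 0 and 2. All 5 were above the shams, and the log2 fold change of 5.09 ± 1.33 missed the threshold (edgeR adjusted p = 0.0108). It passed with DESeq2 (adjusted p = 0.00399). Without MCAO day 7 C it was 3.87 (edgeR adjusted p = 0.0944).

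*Cxcr2* and *Il1r2* were rare and their high values sat in few libraries. *Cxcr2* had 0 counts in every control and sham library except Sham 3 hours D with 4. After MCAO it had 0, 0, 4, 5 and 1 at 3 hours, 2, 0, 11, 2 and 25 at 12 hours, 1, 0, 1 and 7 at 24 hours, 0, 1, 25, 0 and 0 at day 3 and 0, 2, 0, 3 and 0 at day 7. It was at least 11.9-fold higher over the group at 12 hours and at least 7.66-fold higher at day 3, with no call (edgeR adjusted p = 0.110 and 0.0874). Both rest on 25 counts in 1 library. It was at least 5.36-fold higher at 12 hours without MCAO 12 hours E, and without MCAO day 3 C 1 count was left at day 3, against 0 in sham, so no fold is given. *Il1r2* had 0, 2, 0 and 1 counts in the controls and at most 2 in any sham library. After MCAO it had 2, 2, 6, 6 and 0 at 3 hours, 3, 9, 1, 0 and 28 at 12 hours, 4, 0, 5 and 4 at 24 hours, 1, 3, 15, 0 and 3 at day 3 and 0, 1, 0, 0 and 2 at day 7. At 12 hours the shams held 1 count, so the ratio of summed counts was 36.6 with a 95% exact counting interval of 6.21 to 1481, and the fitted difference was not called (edgeR adjusted p = 0.0568). The ratio was 13.9 (2.09 to 592) without MCAO 12 hours E, which held 28 of the 41 counts.

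*Csf3r* had a different course from the other members. It had 6, 1, 1 and 5 counts in the controls, more than in any sham group. The MCAO libraries held 0, 0, 6, 0 and 1 at 3 hours, 0, 0, 1, 1 and 10 at 12 hours and 1, 0, 2 and 3 at 24 hours, and the shams of those times held at most 3 in any library. At day 3 the counts were 3, 6, 29, 2 and 10 after MCAO against 4, 0, 1 and 0 in sham, and at day 7 they were 0, 14, 15, 11 and 10 against 0, 1, 0 and 1. At day 7, 4 of 5 MCAO libraries were above all shams and A was at 0. The log2 fold change was 4.17 ± 1.19 (edgeR adjusted p = 0.0187), not called. By the mean CPM, *Csf3r* was highest at day 7 (5.52 ± 3.36 CPM, SD, n = 5) and next at day 3 (4.84 ± 5.55, SD, n = 5), groups whose libraries overlapped, while *S100a8* at day 7 had its lowest MCAO mean. Its Pearson's r with *S100a8* over the 24 MCAO libraries was 0.19, the lowest of the 36 pairs.

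*Mmp9* was the member with a steady baseline. It had 2, 5, 2 and 3 counts in the controls and 1 to 10 in every sham library. At 3 hours it had 5, 4, 5, 5 and 4 after MCAO against 5, 2, 5 and 3 in sham, with a log2 fold change of 0.27 ± 0.91, not called (edgeR adjusted p = 0.989). At 12 hours it had 1, 3, 22, 5 and 36 against 4, 3, 2 and 9. At 24 hours it had 13, 14, 14 and 21 against 5, 3, 1 and 4, and each MCAO library was above each sham, at 7.71 ± 3.44 CPM (SD, n = 4) against 1.89 ± 0.97 (SD, n = 4). That log2 fold change of 1.96 ± 0.86 was not called (edgeR adjusted p = 0.495, and 0.0931 with these 8 libraries alone). At day 3 it had 5, 8, 160, 7 and 53 counts after MCAO against 10, 2, 8 and 5. Only C and E were above the shams, the log2 fold change was 3.04 ± 0.74 (edgeR adjusted p = 0.00493), and without MCAO day 3 C it was 1.62 and not called (edgeR adjusted p = 0.187). The call was also lost without MCAO day 3 E or any 1 sham of that time, and with scaling to the spike-ins (edgeR adjusted p = 0.0116). At day 7 it had 8, 13, 18, 1 and 7 against 3, 2, 1 and 2.

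*Mmp8* and *Retnlg* were at or near 0 outside MCAO. *Mmp8* had 0 counts in the controls and at most 2 in any sham library. After MCAO it had 2, 1, 6, 4 and 0 at 3 hours, 1, 1, 2, 0 and 13 at 12 hours, 2, 0, 0 and 0 at 24 hours, 0, 1, 33, 5 and 13 at day 3 and 0, 0, 20, 0 and 0 at day 7. All 20 of its day 7 counts were thus in library C. It was at least 15.3-fold higher over the group at day 3 and not called (edgeR adjusted p = 0.0220), and at least 6.93-fold higher without MCAO day 3 C, which held 33 of the 52 counts. *Retnlg* had 1 count in the controls, in library A, and 1 in the shams, in Sham 3 hours B. After MCAO it had 1, 1, 9, 9 and 2 at 3 hours, 0, 12, 5, 1 and 39 at 12 hours, 2, 3, 1 and 0 at 24 hours, 0, 4, 32, 2 and 1 at day 3 and 0, 4, 1, 0 and 0 at day 7. It was at least 17.0-fold higher over the group at 12 hours and at least 11.5-fold higher at day 3, and neither was called (edgeR adjusted p = 0.0336 and 0.0220). It was at least 6.43-fold higher at 12 hours without MCAO 12 hours E (39 of 57 counts), and without MCAO day 3 C (32 of 39) at least 2.55-fold higher at day 3. The collagenase and the resistin-like gene thus had their largest counts in the same libraries as the alarmins, apart from MCAO day 7 C.

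Surgery without occlusion left no call. No member was called between sham and control at any time with edgeR, none had an unadjusted p under 0.05, and DESeq2 called 0. Of all genes, 0% were called at 3 hours, 0.0351% at 12 hours, 0.01% at 24 hours, 0% at day 3 and 0% at day 7. Only 3, 2, 1, 2 and 0 of the 9 fitted log2 fold changes were above 0. By the mean CPM, sham was below control for 4, 6, 6, 5 and 7 members and above it for 5, 2, 1, 2 and 0, the rest being at 0 in both. Against the controls, which are shared by all 5 times, MCAO raised *S100a8* (a ratio of summed counts of 56.1, edgeR adjusted p = 0.000851) and *S100a9* (55.5, edgeR adjusted p = 0.00104) at 12 hours. At day 3 it raised *S100a8* (4.63 ± 1.11 on the log2 scale, edgeR adjusted p = 0.00491), *Cd300lf* (5.93 ± 1.19, edgeR adjusted p = 0.000863) and *Mmp9* (3.69 ± 0.82, edgeR adjusted p = 0.00217). No member was called at 3 hours, 24 hours or day 7, where 3, 3 and 2 had an unadjusted p under 0.05 and DESeq2 called 0. Of the 19970 genes tested, 1827, 2199 and 2982 had such a p at those times. In order of time 0.115%, 0.386%, 0.12%, 2.81% and 1.09% of all genes were called higher against control. Without MCAO 12 hours E the 12 hour ratios were 16.0 for *S100a8* and 10.7 for *S100a9*, neither called (edgeR adjusted p = 0.0148 and 0.0346). Without MCAO day 3 C the day 3 differences were 2.02 for *S100a8* and 2.27 for *Mmp9*, neither called (edgeR adjusted p = 0.306 and 0.0794), and 5.22 for *Cd300lf*, which was called (edgeR adjusted p = 0.00575). Leaving out 1 control also ended the call of *S100a9* at 12 hours (A), of *S100a8* at day 3 (any of the 4) and of *Mmp9* at day 3 (A, C or D).

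The course in time was tested between successive MCAO groups. *S100a9* rose from 3 to 12 hours by 3.91 ± 0.85 on the log2 scale (edgeR adjusted p = 0.00786), 1 member of 9 where 0.376% of all genes were called in either direction. *S100a8* differed by 3.55 ± 0.81 and missed the threshold (edgeR adjusted p = 0.0120). Without MCAO 12 hours E the *S100a9* step was 1.45 and not called (edgeR adjusted p = 0.386), and the call was lost without any 1 of the MCAO 3 hour libraries. No member was called from 12 to 24 hours (0.015% of all genes), from 24 hours to day 3 (0.486%) or from day 3 to day 7 (0.0351%). In these steps 4, 5 and 6 members had an unadjusted p under 0.05, as had 1414, 3027 and 2310 of the 19970 genes tested. DESeq2 called 0, 0 and 2 of the members, with no share of all genes set beside it. The values were -3.14 ± 0.86 for *S100a8* from 12 to 24 hours (edgeR adjusted p = 0.437), 3.16 ± 0.87 for *Cd300lf* from 24 hours to day 3 (edgeR adjusted p = 0.0469), and -4.18 ± 0.96 for *S100a8* from day 3 to day 7 (edgeR adjusted p = 0.0339). DESeq2 called *S100a8* and *S100a9* in that last step. Whether the effect of MCAO over sham differed between successive times was tested as an interaction, and no member was called in any of the 4 steps. In order 2, 1, 0 and 0 members had an unadjusted p under 0.05, as had 1421, 1015, 1762 and 3231 of the 19970 genes tested. By edgeR 0.01%, 0.01%, 0.01% and 0% of all genes were called in either direction, and DESeq2 called 0 members.

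By the mean CPM of the MCAO groups, *S100a8*, *S100a9*, *Il1r2*, *Cxcr2* and *Retnlg* were highest at 12 hours, *Cd300lf*, *Mmp8* and *Mmp9* at day 3, and *Csf3r* at day 7. These orders lean on single libraries. By the median, *Il1r2* (1.91 CPM) and *Mmp9* (6.24 CPM) were highest at 24 hours instead, and the other 7 kept their time. For *S100a8* the medians were 18.4 CPM at 3 hours, 85.0 at 12 hours, 21.4 at 24 hours, 4.97 at day 3 and 4.07 at day 7. In that order of levels the 12 hour libraries overlapped those of 24 hours and 3 hours, and the 24 hour libraries overlapped those of 3 hours. The day 3 libraries, at 2.67 to 328 CPM, spanned the ranges of 3 hours, 24 hours and day 7 and overlapped that of 12 hours. By the mean, *S100a8* at day 3 (75.2 ± 142 CPM, SD, n = 5) came second, above 24 hours, with an SD larger than the mean.

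The members varied together over the 24 MCAO libraries, as a description of libraries that share their times and their 2 extreme members. The 36 pairwise Pearson's r of log2(CPM + 1) ran from 0.19 to 0.97 (median 0.57). Without MCAO 12 hours E and MCAO day 3 C they ran from -0.29 to 0.94 (median 0.22), so most of the likeness rested on those libraries. Besides the alarmins, the pairs highest without them were *Cd300lf* with *Mmp8* (0.62), *Cd300lf* with *Mmp9* (0.60), *S100a9* with *Cxcr2* (0.58), *Cd300lf* with *Csf3r* (0.57) and *S100a8* with *Cxcr2* (0.56). *Csf3r* had r of -0.29 with *S100a8* and -0.27 with *S100a9* in the same 22 libraries.

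**Figure D3:**
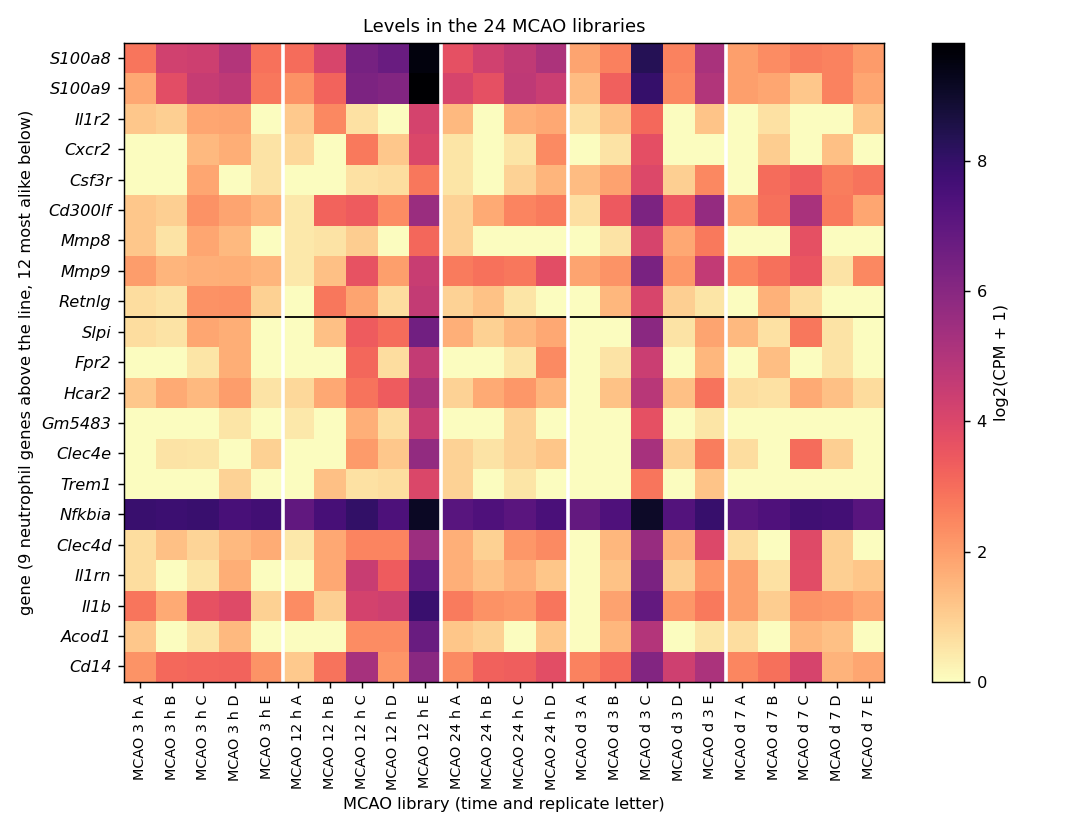
Levels as log2(CPM + 1) of the 9 neutrophil genes (above the line) and of the 12 other genes most like them (below) in the 24 MCAO libraries, ordered by time and replicate letter. The columns of MCAO 12 hours E and MCAO day 3 C are dark in nearly every row, and *Nfkbia* is high throughout.

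The genes most like the members were sought by Pearson's r over the 24 MCAO libraries with the mean of the 9 members' standardized log2(CPM + 1), among genes with a mean of at least 1 CPM. The 12 highest were *Slpi* (0.91), *Fpr2* (0.90), *Hcar2* (0.89), *Gm5483* (0.89), *Clec4e* (0.89), *Trem1* (0.88), *Nfkbia* (0.88), *Clec4d* (0.88), *Il1rn* (0.87), *Il1b* (0.86), *Acod1* (0.86) and *Cd14* (0.85). *Slpi* encodes a secreted inhibitor of leukocyte proteases, *Fpr2* a receptor for formyl peptides, and *Clec4d* and *Clec4e* C-type lectin receptors of myeloid cells. *Il1rn* encodes the antagonist of the interleukin-1 receptor, *Il1b* interleukin-1 beta, *Acod1* the enzyme that makes itaconate, and *Nfkbia* an inhibitor of NF-kB. *Gm5483*, *Il1rn* and *Acod1* had 0 counts in every control and sham library, whereas *Nfkbia* reached 384 there. In MCAO 12 hours E and MCAO day 3 C *Il1b* had 391 and 237 counts against a median of 8 over the MCAO libraries, and *Slpi* had 156 and 119 against 3. Without both libraries *Cd14* ranked 9 (0.75), *Slpi* 29 (0.72), *Hcar2* 43 (0.71) and *Clec4d* 66 (0.69), the others with a value fell to ranks 233 to 455, and *Fpr2*, *Gm5483*, *Trem1* and *Acod1* were under 1 CPM.

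Other neutrophil transcripts were read against the members by their place in the life of the cell. Of the 4 proteins of primary granules, which are made in marrow precursors, *Ctsg* had 0 counts in all 48 libraries, *Elane* 1 and *Mpo* 11, and none of the 2 tested was called. *Prtn3* had 78 counts in MCAO and 61 in the other libraries. Of 7 tested genes of secondary and later granules, 1 was called, at day 3: *Lcn2* (lipocalin 2, which binds iron carriers of bacteria) rose by 4.93 ± 0.92 on the log2 scale (edgeR adjusted p = 0.000200), with 0 to 165 counts (median 47) after MCAO and 0 to 6 in sham, and by 4.17 without MCAO day 3 C (edgeR adjusted p = 0.00259). *Ltf*, *Camp* and *Ngp*, which mark immature neutrophils, had 20, 39 and 28 counts over all 48 libraries. Of 8 tested surface receptors, 3 were called at day 3 and 0 at the other times, namely *C5ar1* (the receptor for complement C5a, at least 32.4-fold higher over the group, edgeR adjusted p = 0.000348), *Clec4d* (at least 40.4-fold higher, edgeR adjusted p = 0.00662) and *Csf2rb* (the shared chain of the GM-CSF receptor, 3.84 ± 0.84, edgeR adjusted p = 0.00150). Without MCAO day 3 C *C5ar1* was at least 23.7-fold higher and still called (edgeR adjusted p = 0.00187), while *Clec4d* (at least 14.96-fold higher, edgeR adjusted p = 0.0452) and *Csf2rb* (3.18, edgeR adjusted p = 0.0157) were not. The *Clec4d* call was also lost without MCAO day 3 E or any 1 sham, and that of *Csf2rb* without Sham day 3 D. Of the 6 subunits of the oxidase that makes superoxide, 5 were called at day 3 and 4 at day 7. The largest was *Rac2* (4.09 ± 0.62, edgeR adjusted p = 1.02e-05) at day 3 and *Cybb* (3.94 ± 0.80, edgeR adjusted p = 0.00107) at day 7. *Rac2* stayed called at day 3 without any 1 library, whereas *Cybb* at day 7 was 2.39 and not called without MCAO day 7 C (edgeR adjusted p = 0.0424), and its call was also lost without Sham day 7 D. Monocytes and microglia also make these subunits. For *Lcn2*, *C5ar1* and *Csf2rb* too, bulk libraries do not name the cell that held the transcript, and its source was not tested.

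A minority of the ligands of the member receptors passed the test. Of 8 tested, *Cxcl2* and *Il1b* were called at 12 hours and *Cxcl2*, *Cxcl5* and *Il1b* at day 3, and 0 at the other times. *Cxcl2*, a ligand of Cxcr2, had 0 to 615 counts (median 22) after MCAO and 0 to 1 in sham at 12 hours (8.87 ± 1.80, edgeR adjusted p = 0.00453). *Il1b*, which Il1r2 binds, had 2 to 391 counts (median 32) against 0 to 3 (6.23 ± 1.24, edgeR adjusted p = 0.00349). MCAO 12 hours E held 615 of the 699 *Cxcl2* counts and 391 of the 469 *Il1b* counts of that time, and without it the differences were 5.98 and 3.80 and neither was called (edgeR adjusted p = 0.0890 and 0.0895), nor was either without any 1 sham of that time. *Cxcl5* was at least 14.7-fold higher over the group at day 3 (edgeR adjusted p = 0.00120), and at least 6.203-fold higher without MCAO day 3 C (edgeR adjusted p = 0.0160). None of the 3 day 3 calls was left without that library, those of *Cxcl2* and *Il1b* being 3.87 and 3.47 (edgeR adjusted p = 0.348 and 0.186). The *Cxcl2* call was also lost without any 1 sham of day 3, and that of *Il1b* without Sham day 3 A or C. The tested receptors of the alarmins, *Tlr4* and *Ager*, and the 3 partners and inhibitors of interleukin-1 receptors had no call at any time. Of the 6 collagenases, gelatinases and inhibitors beside the members, *Timp1*, the inhibitor of Mmp9, was called at 12 hours (4.28 ± 0.69, edgeR adjusted p = 0.000259), 24 hours (4.60 ± 0.82, edgeR adjusted p = 0.00184) and day 3 (5.83 ± 0.78, edgeR adjusted p = 1.04e-06). Its calls at 12 hours and day 3 held without any 1 library, and that at 24 hours was lost without MCAO 24 hours D or Sham 24 hours A, C or D. At 12 hours it had 57 to 173 counts after MCAO and 0 to 12 in sham, so its groups were apart where those of *Mmp9* overlapped. *Mmp14* was called at day 3 and day 7 and *Mmp13* at day 7. The *Mmp14* call at day 3 was lost without MCAO day 3 C, MCAO day 3 E or any 1 sham, and that at day 7 held without any 1 library. The *Mmp13* call was lost without MCAO day 7 C or any 1 sham of that time. Of the 7 relatives of Cd300lf and Retnlg, 5 were tested and *Cd300c2* alone was called, at day 7 (3.32 ± 0.71, edgeR adjusted p = 0.00189), and not without MCAO day 7 C (2.61, edgeR adjusted p = 0.0222) or Sham day 7 D. Of 8 adhesion genes 5 were called at day 3, of which *Selp* (P-selectin, at least 45.7-fold higher over the group, edgeR adjusted p = 0.000315) and *Icam1* (3.94 ± 0.77, edgeR adjusted p = 0.000400) are the endothelial ones, and 2 at day 7. Without MCAO day 3 C *Selp* was at least 24.5-fold higher (edgeR adjusted p = 0.00260) and *Icam1* 3.49 higher on the log2 scale (edgeR adjusted p = 0.00325), both called.

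**Figure D4:**
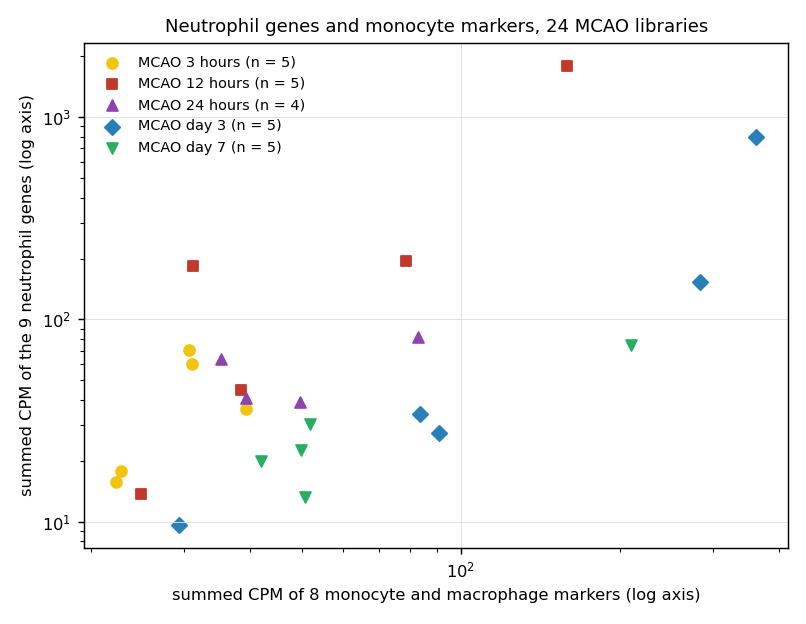
Summed CPM of the 9 neutrophil genes against the summed CPM of 8 monocyte and macrophage markers (both log axes) in the 24 MCAO libraries, with a symbol for each time. MCAO 12 hours E is highest on the vertical axis (1797 CPM) at 158 CPM of markers, and MCAO day 3 C is highest on the horizontal axis (362 CPM).

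Of the markers of other blood cells, those of monocytes and macrophages went with the members in part. The summed level of 8 monocyte and macrophage markers, of which *Vcan* was highest, was 16.4 to 32.9 CPM in the control and sham libraries and 24.8 to 158 CPM after MCAO at 12 hours and 29.4 to 362 CPM at day 3. Within 12 hours, 24 hours, day 3 and day 7 the library highest in the members was also the highest in these markers, with 158 CPM in MCAO 12 hours E, 83.1 in MCAO 24 hours D, 362 in MCAO day 3 C and 210 in MCAO day 7 C. At 3 hours it was not, the members being highest in D and the markers in B. None of these markers was at 0 in all libraries, and 1 was called at 12 hours (*Cd14*), 5 at day 3 and 3 at day 7 (*Ms4a7*, *Plac8* and *Vcan*, each lost without MCAO day 7 C). The *Cd14* call at 12 hours was lost without MCAO 12 hours C, MCAO 12 hours E or any 1 sham. *Cd14* is also among the 12 genes picked above as most like the members. At day 3 the *F13a1* call was lost without MCAO day 3 C, MCAO day 3 E or any 1 sham. The part of these markers in the member results was not tested. MCAO day 3 E had 284 CPM of monocyte markers with 152 CPM of members, MCAO day 7 C had 210 with 74.4, and MCAO 12 hours D had 31.2 CPM of markers with 184 CPM of members, so the levels were not in 1 ratio. Erythroid markers (5 genes, with the hemoglobin gene *Hbb-bs* highest) were at 180 to 627 CPM after MCAO at 3 hours against 10.4 to 97.3 in sham. They were at 69.7 to 1416 CPM against 15.6 to 138 at 12 hours, and at 63.3 to 458 against 20.1 to 150 at 24 hours. At day 3 they were at 97.7 to 478 CPM against 12.2 to 23.6. At day 7, when the members were lower, they were at 34.6 to 725 CPM against 9.80 to 49.2. At 3 hours and day 3 every MCAO library was above every sham in these markers. MCAO 3 hours D was the highest library of its time in both these markers and the members. MCAO 12 hours E, at 799 CPM, was below MCAO 12 hours C (1416) and D (1304) in these, and their part in the member results was not tested. The microglial marker *Cx3cr1*, a chemokine receptor, was at 417 ± 134 CPM (SD, n = 5) after MCAO at day 3 against 122 ± 28.2 (SD, n = 4) in sham, called higher by 1.77 ± 0.29 on the log2 scale (edgeR adjusted p = 3.77e-05). At day 7 it was at 379.6 ± 245 CPM (SD, n = 5) against 158 ± 41.5 (SD, n = 4), with a difference of 1.26 ± 0.29 (edgeR adjusted p = 0.00355) whose call was lost without MCAO day 7 C or Sham day 7 A or C. These are the times at which *Csf3r* was highest, and the part of microglia in its values was not tested. T cell markers stayed at or under 7.68 CPM and B cell markers at or under 2.38 CPM in every library, *Cd79a* and *Ms4a1* at 0 in all, and markers of eosinophils, basophils and mast cells at or under 3.76 CPM. At day 3 platelet markers (*Gp1bb* highest) were at 33.6 to 152 CPM against 23.5 to 37.7 in sham, endothelial markers (*Flt1* highest) at 210 to 432 against 198 to 227, and neuronal markers (*Snap25* highest) at 1739 to 2488 against 2531 to 3138.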

How the data were processed

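The libraries were made with a 3′ kit (QuantSeq) and spike-ins. The authors trimmed the reads, removed ribosomal and mitochondrial reads, aligned the rest to GRCm38 with STAR 2.5.2b and assigned them to Gencode vM8 genes by htseq-count. The deposited values used are these raw counts, 1 table per library, and 0 columns were without a sample. A deposited normalized matrix was not used. Reads outside genes (21.1% to 30.6% of those listed), ambiguous reads and reads that aligned more than once were left out, as were the spike-ins. Symbols and coordinates came from Gencode vM21 (46488 of 46983 identifiers). The 3′ counting was by gene, and whether it used strand is not given in the sources used here.

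Groups came from the sample labels. By the study's account replicates are mice. edgeR 4.0.16 in R 4.3.3 (TMM, glmQLFit, glmQLFTest) was fitted to 19970 genes in 11 groups, and the script was tested on simulated data. Other values were computed in Python 3.11.15 with scipy 1.17.1 and drawn with matplotlib 3.10.9. Folds against groups at 0 used a floor of 3 counts over the group. Intervals and floors cover counting error only. Named were the 9 members, the 12 genes most like them over all 24 MCAO libraries, of each list the called genes with the largest changes, up to 4 per comparison, and marker sums. The members and lists were chosen with earlier results of these data known. The alternatives were DESeq2 1.42.0, its size factors, spike-in scaling, filterByExpr or no filter, only the compared groups, a replicate block, and leaving out libraries. Leaving out MCAO 12 hours E and MCAO day 3 C together was chosen after seeing the data. The summed microglial marker list is not reported here.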

Additional observations from a re-analysis of the deposited data

Results flagged for a closer look

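Within groups of 4 or 5 libraries, the distance of the highest or lowest library from its neighbor was set against Dixon's 95% limit (0.829 of the range for 4 libraries, 0.710 for 5) for each member with more than 3 counts in some library of the group. Of 58 groups tested 21 had such a library. The limit flags about 1 in 20 groups when values are independent and normally distributed. That rate cannot serve as a chance rate here. Many values were CPM of low counts, and groups entered through the count of their highest library. The tests also reused the same libraries over genes that varied together. The 21 are thus a description, and no excess over chance is drawn from them. MCAO 12 hours E accounted for 7, with 759 CPM of *S100a8*, 903 of *S100a9*, 16.7 of *Il1r2*, 5.96 of *Csf3r*, 45.3 of *Cd300lf*, 7.74 of *Mmp8* and 23.2 of *Retnlg*. MCAO day 3 C accounted for another 7, with 328 CPM of *S100a8*, 246 of *S100a9*, 7.49 of *Il1r2*, 12.5 of *Cxcr2*, 14.5 of *Csf3r*, 79.9 of *Mmp9* and 16.0 of *Retnlg*. MCAO day 7 C stood out in *Cd300lf* (35.7 CPM) and *Mmp8* (11.9 CPM), and MCAO 24 hours D in *Cxcr2* (4.28 CPM) and *Mmp9* (12.8 CPM). The others were *Csf3r* in MCAO 3 hours C (2.52 CPM), *Mmp9* in MCAO 3 hours A (3.01 CPM) and *Cxcr2* in Sham 3 hours D (2.18 CPM), which rest on 6, 5 and 4 counts.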

How the results depend on the processing

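All of these values are counts of members called. Against sham they were 3 at 12 hours, 4 at day 3 and 0 at the other times. DESeq2's size factors moved none of the 23 counts by more than 1.5 times. With spike-in scaling, DESeq2 and filterByExpr the day 7 count was 1, and DESeq2 called 2 from day 3 to day 7. Spike-in scaling shifted the median log2 fold change of all genes by up to -0.22 (day 3). With no filter the counts were 2 at day 7 against sham, 5 at day 3 and 1 at day 7 against control, and 2, 1, 1 and 2 in the steps of MCAO. With only the compared groups fitted they were 0 at 12 hours, 2 at 24 hours and 0 at day 3 against sham, 0, 2 and 0 at those times against control, and 0 from 3 to 12 hours. The replicate block gave 2 at day 3 and 1 at day 7 against sham, 1 at 12 hours and 1 at day 3 against control, and 0 from 3 to 12 hours. Letters did not pair the libraries (median r 0.0056 for the same letter, lowest -0.44, -0.0037 for other letters).

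Leaving out 1 library gave 2 to 3 at 12 hours, 0 to 6 at day 3 (0 without MCAO day 3 C) and 0 to 2 at day 7 against sham, 0 to 2 at 12 hours and 1 to 4 at day 3 against control, and 0 to 2, 0 to 1 and 0 to 2 in the steps from 3 hours, 24 hours and day 3. It gave 0 in every other comparison. Leaving out MCAO 12 hours E and MCAO day 3 C together gave 2 at day 3 and 2 at day 7 against sham, 1 at day 3 against control, and 0 from 3 to 12 hours. The median r of member pairs was 0.38 with Spearman's rho, 0.43 to 0.65 without 1 library and 0.22 without both. The cause of these changes was not tested. No member called in the report changed sign under any alternative, and 158 of the 222 values stayed past the threshold.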
